A study of Aspergillus nidulans with 9 samples.

Results

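A set of 65 genes of *Aspergillus nidulans*, out of 10988 rows counted, was raised in the Δ*veA*-labelled libraries while its level in Δ*laeA* stayed close to that of the wild type (WT). The genes were picked by their own values. Counts were turned into CPM (the count of a gene as a share of all counts of its library, scaled to a total of 1000000), averaged over the 3 libraries of each strain, and each mutant was set against WT as log2((mutant + 0.5)/(WT + 0.5)). The median of this ratio over the 8905 genes with a mean of at least 1 CPM, which was -0.23 for the Δ*veA*-labelled libraries and -0.31 for Δ*laeA*, was then taken off. A gene was taken when this centred ratio was at least 1.5 in the Δ*veA*-labelled libraries, lay between -0.5 and 0.5 in Δ*laeA*, and the mean in the Δ*veA*-labelled libraries was at least 5 CPM. Since all 3 groups of libraries entered this choice, the levels of the 65 genes are given as a description. Where genes of the set are counted by the calls of a test over all genes, the share of all genes called stands beside the count, and the calls are no evidence for the choice.

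RNA was sequenced from vegetatively grown cells (Vege) of 3 strains, WT, Δ*veA* and Δ*laeA*, with 3 libraries each. Growth was in dark liquid culture, in minimal medium with 1% glucose, shaken at 220 rpm and kept at 37 °C until 24 h. The strain table of the study lists 1 *veA* deletion strain, Δ*veA*::*argB*, in which *argB* stands in place of *veA*, and 1 *laeA* deletion strain, which carries *methG* in place of *laeA* in a *methG1* background with *veA*. Each mutant is thus 1 strain. The sources used here do not tell if its 3 libraries were separate cultures, so the spread between them may be technical.

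VeA belongs to the velvet family of fungal regulators, which connect light to development. It works in the nucleus through partner proteins, among them VelB, another velvet protein, and LaeA, which has a methyltransferase fold. Fruiting body formation and the making of secondary metabolites both depend on these partners. Genes that make 1 secondary metabolite often lie side by side on a chromosome as a cluster, and LaeA is known above all for its control of such clusters.

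The libraries held between 13396869 and 35755046 counts on genes. The *laeA* gene was at 39.2 to 43.4 CPM in WT and at 4.53 to 6.06 CPM in Δ*laeA*. The *veA* gene went against its label. It was at 123 to 133 CPM in WT, at 743 to 779 CPM in the Δ*veA*-labelled libraries, and at 62.0 to 66.4 CPM in Δ*laeA*. *argB*, the marker of the deletion, was 4.70-fold over WT in the Δ*veA*-labelled libraries and at 96.4 CPM beside 92.2 CPM in Δ*laeA* and WT. *esdC*, a gene of early sexual development, had a log2 fold change of -4.72 (-2.45 in Δ*laeA*). *argB* is in the set, so it was picked for this pattern, and *esdC* was lower in both mutants. Neither was taken as a check of the label. The counts do not say which part of *veA* the reads came from, and the group is called the Δ*veA*-labelled libraries throughout, with every direction below resting on that label. Of 11 conidiation and sexual development genes tested, none of them in the set, 7 were called lower than WT in the Δ*veA*-labelled libraries (19.9% of all genes tested) and 5 in Δ*laeA* (14.5% of all genes, and 3 of the 11 without Δ*laeA* replicate 1). A gene was called if it changed over 2-fold with an adjusted p under 0.05 in the quasi-likelihood test of edgeR, with Benjamini-Hochberg adjustment over 9481 genes.

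The set is a small share of the genes that were raised. In all, 421 genes reached a ratio of 1.5 and 5 CPM in the Δ*veA*-labelled libraries. Beside 54.9% of the 8905 genes with a mean of at least 1 CPM, 65 of the 421 (15.4%) lay between -0.5 and 0.5 in Δ*laeA*. Of the others, 327 had a Δ*laeA* ratio above 0.5, of which 146 reached 1.5 there too, and 29 lay below -0.5. The number of raised genes changed step by step across the Δ*laeA* axis, with 9 between -1 and -0.5, 21 between -0.5 and 0, 44 between 0 and 0.5, and 94 between 0.5 and 1. The upper limit of 0.5 thus cuts through a continuous range, and the set leans to its upper side: 44 of the 65 genes had a positive ratio in Δ*laeA* and 21 a negative one, with a median of 0.24.

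**Figure D1:**
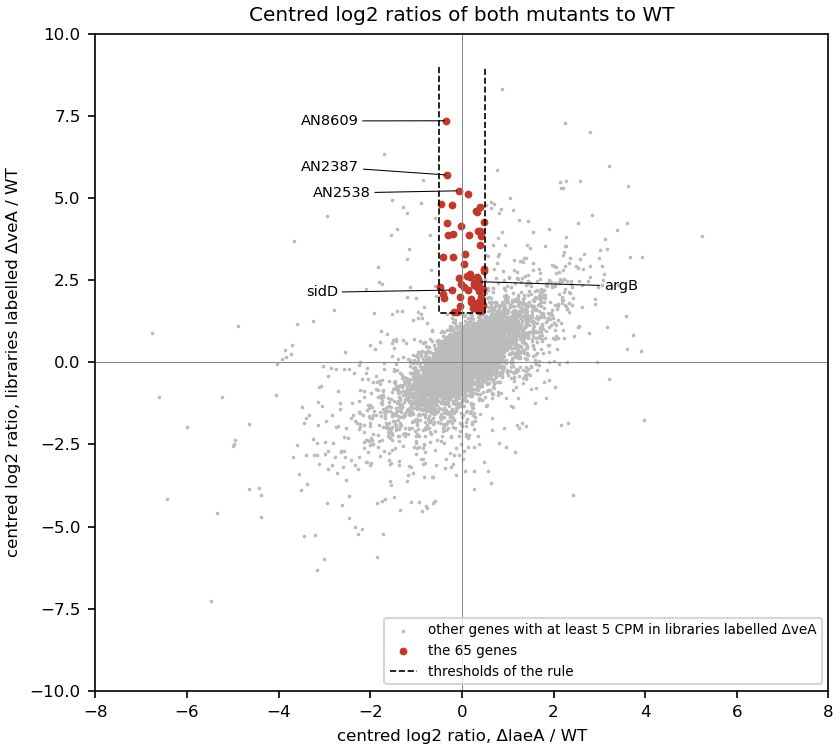
Centred log2 ratio of the Δ*veA*-labelled libraries to WT (vertical axis) against that of Δ*laeA* to WT (horizontal axis), 1 point per gene with at least 5 CPM in the Δ*veA*-labelled libraries, with the 65 genes in red inside the dashed thresholds. The cloud of genes rises from lower left to upper right, and the 65 genes stand in the narrow band above its middle, from 1.52 to 7.35 on the vertical axis.

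Genes close to a threshold differ little from those on its other side. The smallest ratios inside the set were those of AN2837 (1.52), AN4098 (1.53) and AN8608 (1.56), while AN10024 (1.495), AN6520 (1.48) and AN8068 (1.47) were left out. At the upper Δ*laeA* limit AN5946, AN5053 and AN12103 were inside with ratios of 0.48, 0.48 and 0.47, and AN11851, AN3567 and AN3970 were outside with 0.51, 0.52 and 0.52. At the lower limit AN2165 (-0.47), AN7541 (-0.45) and AN5067 (-0.42) were inside, and AN5905 (-0.56), AN12472 (-0.58) and AN3974 (-0.58) were outside. By level, AN2837 (5.14 CPM), AN8608 (5.81 CPM) and AN10893 (6.44 CPM) were just inside, and AN8478 (4.99 CPM), AN2639 (4.81 CPM) and AN12458 (4.67 CPM) were just outside.

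Together the 65 genes took 0.0794 to 0.0816% of the counts of a WT library, 0.0745 to 0.0779% of a Δ*laeA* library and 0.429 to 0.436% of a Δ*veA*-labelled library. Most are weakly expressed in WT. Their WT means ran from 0.0186 to 92.2 CPM with a median of 3.29, those of Δ*laeA* from 0.0291 to 96.4 CPM with a median of 2.69, and those of the Δ*veA*-labelled libraries from 5.14 to 454 CPM with a median of 23.9. The mean rose at least 4-fold in 45 of the 65 genes, at least 8-fold in 22 and at least 16-fold in 15, on the scale of mean CPM. The 10 genes below 1 CPM in WT had ratios of 3.21 to 4.80 (median 4.19), the 37 genes from 1 to 10 CPM had 1.52 to 7.35 (median 2.42), and the 18 genes of 10 CPM or more had 1.65 to 3.86 (median 2.14). The high ratios were mostly those of genes with little RNA in WT, with AN8609 the highest of all at an intermediate WT level. The minimum of 5 CPM in the Δ*veA*-labelled libraries builds in part of this. A gene low in WT can pass that minimum only with a high ratio.

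**Figure D2:**
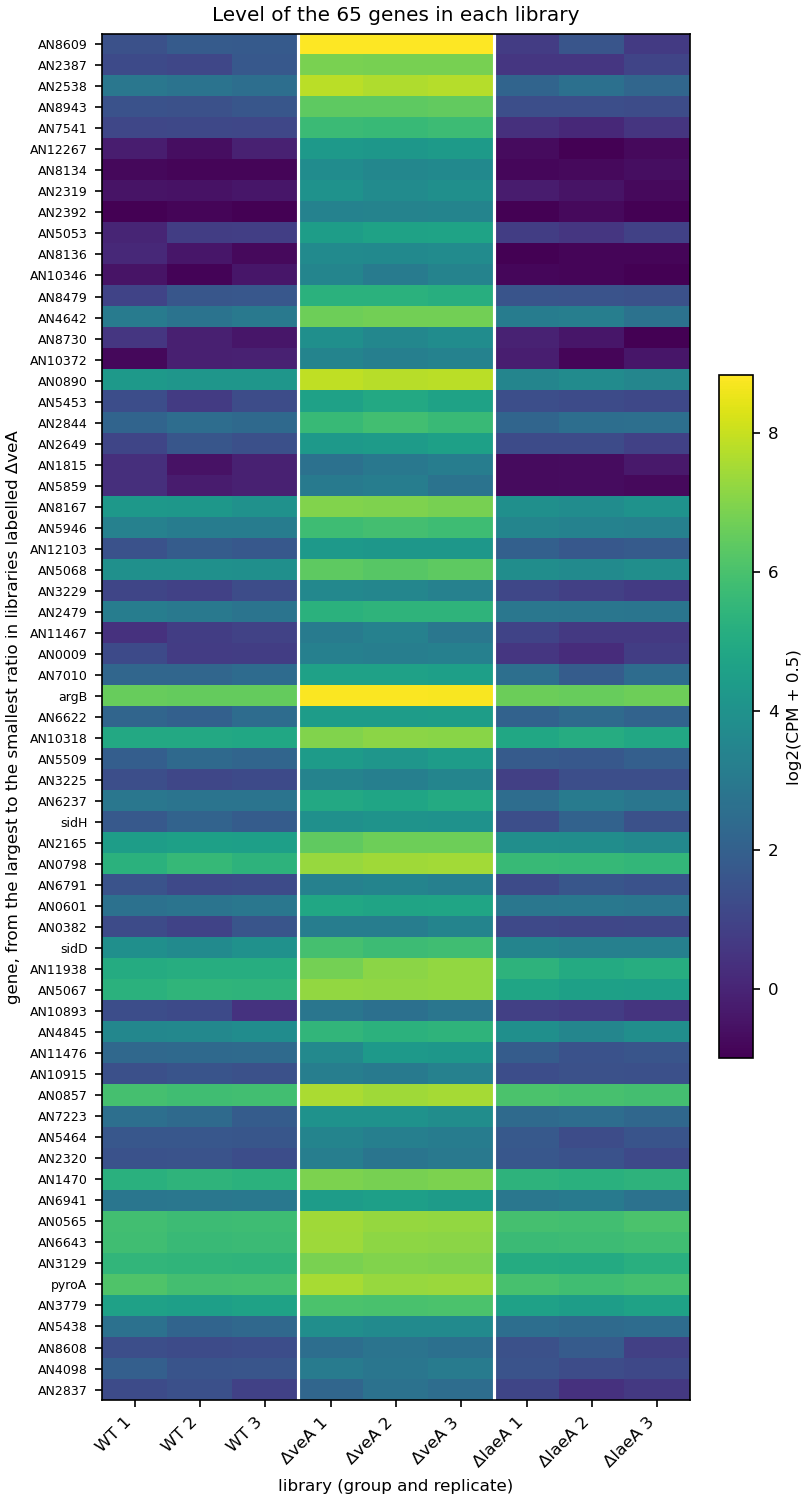
Level of each of the 65 genes (rows, ordered by their ratio in the Δ*veA*-labelled libraries) in each of the 9 libraries (columns), as log2(CPM + 0.5). The 3 Δ*veA*-labelled libraries are brighter than the other 6 in every row, and the WT and Δ*laeA* columns differ little.

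All 65 genes were called higher in the Δ*veA*-labelled libraries than in WT, where 13.6% of all genes tested were called higher, and all 65 were called higher there than in Δ*laeA*, against 6.74% of all genes. In each of the 65 genes every Δ*veA*-labelled library lay above every WT library (29.6% of all genes tested) and above every Δ*laeA* library (41.1%). The rule asked for these differences, so the counts describe the set and nothing is read from them.

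The libraries of a group agreed closely for the high genes. The coefficient of variation between the 3 Δ*veA*-labelled libraries had a median of 6.58% and reached at most 23.5%, in AN11476. It was 12.4% in WT and 14.2% in Δ*laeA* at the median, where counts were lower. The smallest count of any of the 65 genes in a Δ*veA*-labelled library was 105, whereas 6 genes had 3 or fewer counts in at least 1 WT library and 6 had 3 or fewer in all Δ*laeA* libraries.

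AN8609 had the highest mean CPM in the Δ*veA*-labelled libraries and the largest ratio of the set. It was at 2.24, 3.05 and 2.98 CPM in WT replicates 1 to 3, at 456, 450.4 and 455 CPM in the Δ*veA*-labelled libraries, and at 1.19, 2.49 and 1.08 CPM in Δ*laeA*. The mean was 165-fold that of WT and the ratio was 7.35. Without the 0.5 CPM in the ratio, AN2392 and AN8134 would stand above it, both with 2 or fewer counts in every WT library. The Δ*laeA* libraries overlapped those of WT through replicate 2 alone. Without the fold minimum AN8609 was 1 of 9 genes of the set lower in Δ*laeA* at an adjusted p under 0.05 (log2 fold change -0.48), beside 36.8% of all genes. The 3 Δ*veA*-labelled libraries differed by 0.67% (coefficient of variation), the least of the 65 genes. AN8609 lies on chromosome III and has no symbol in the gene table used.

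After AN8609 came 4 genes with ratios from 4.81 to 5.70. AN2387 was at 1.79, 1.62 and 2.73 CPM in WT, at 115, 111 and 112 CPM in the Δ*veA*-labelled libraries and at 0.963, 0.959 and 1.52 CPM in Δ*laeA* (55.1-fold over WT). AN2538 was at 7.02, 6.15 and 5.41 CPM, at 222, 203 and 213 CPM, and at 3.97, 5.71 and 4.28 CPM in the same order (34.3-fold). Both genes were low in WT and Δ*laeA*. AN8943 went from 2.31, 2.18 and 2.58 CPM in WT to 82.6, 83.9 and 87.9 CPM in the Δ*veA*-labelled libraries (35.9-fold), with 2.1, 2.09 and 1.92 CPM in Δ*laeA*. AN7541 went from 1.64, 1.71 and 1.64 CPM to 52.0, 48.4 and 53.1 CPM (30.8-fold), with 0.793, 0.610 and 0.934 CPM in Δ*laeA*. In these last 2 genes and in AN2387 every Δ*laeA* library lay below every WT library in CPM. The same held for 14 of the 65 genes and for 57.3% of all genes tested.

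Of the other 5 genes among the 10 largest ratios, 4 were close to the limit of counting in WT. A library with 3 or fewer counts of a gene was taken as one that cannot be told from none. AN8134 had 1, 2 and 1 counts in the WT libraries, 469, 232 and 248 in those labelled Δ*veA*, and 1, 2 and 3 in Δ*laeA*. AN2392 had 0, 2 and 0 counts, then 343, 212 and 211, then 0, 2 and 0. These were the only members at or under 3 counts in every WT library, so no fold is given for them. AN12267 had 5, 5 and 9 counts in WT, 693, 370 and 401 in the Δ*veA*-labelled libraries, and 2, 0 and 2 in Δ*laeA*. AN2319 had 3, 7 and 5 counts in WT, 561, 271 and 292 in the Δ*veA*-labelled libraries, and 6, 5 and 2 in Δ*laeA*. AN5053, with 0.523, 1.2 and 1.29 CPM in WT, reached 21.5, 25.0 and 25.8 CPM (24.0-fold) and was at 1.25, 0.959 and 1.38 CPM in Δ*laeA*. For genes this low the 0.5 CPM added to both sides pulls the Δ*laeA* ratio toward 0 before centring, which is 0.31 after it. That value is inside the band, so the place of these genes there says little about Δ*laeA*.

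**Figure D3:**
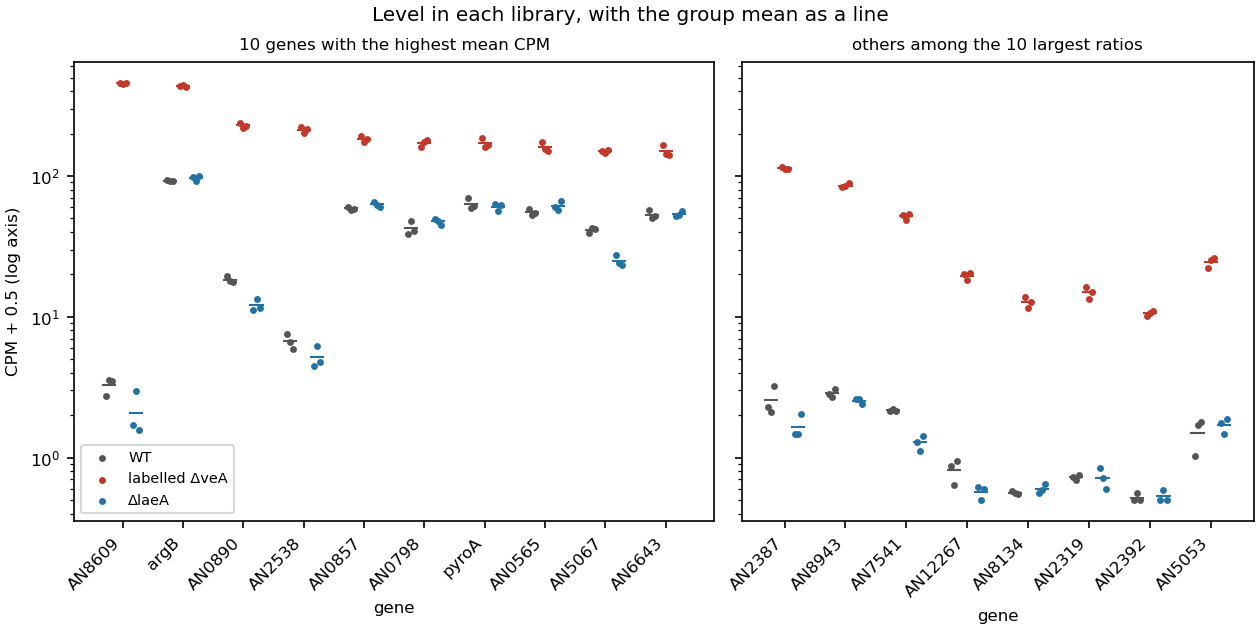
CPM + 0.5 in each library (points, log axis) with the group mean (line), for the 10 genes with the highest mean in the Δ*veA*-labelled libraries and for the other 8 among the 10 largest ratios. In each of the 18 genes the 3 Δ*veA*-labelled libraries lie above all WT and Δ*laeA* libraries, and the distance is widest for AN8609.

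Most of the genes with the highest CPM in the set had a higher WT level and a smaller rise. Of the 10 with the highest mean in the Δ*veA*-labelled libraries, 7 were at 40.8 CPM or more in WT, while AN8609, AN2538 and AN0890 were lower. Among them, *argB*, which encodes the ornithine carbamoyltransferase of arginine synthesis, was at 93.8, 91.1 and 91.6 CPM in WT, 434, 440.4 and 425 CPM in the Δ*veA*-labelled libraries, and 97.2, 92.0 and 100.1 CPM in Δ*laeA* (4.70-fold over WT, ratio 2.45). *argB* is also the marker put at the *veA* locus of this strain, and reads from that copy and from the resident gene cannot be told apart in the counts, so its part in the value was not tested. The gene *metG*, taken here as the marker of the Δ*laeA* strain, was at 37.0 CPM in WT, 52.6 CPM in the Δ*veA*-labelled libraries and 98.8 CPM in Δ*laeA*, and is not in the set.

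*pyroA*, whose product makes pyridoxine (vitamin B6), was at 69.0, 58.8 and 60.4 CPM in WT, 186, 159 and 165 CPM in the Δ*veA*-labelled libraries, and 62.9, 55.8 and 61.4 CPM in Δ*laeA*. Its 2.71-fold rise was among the smaller ones of the set. AN0890 was at 18.9, 17.5 and 17.3 CPM in WT, 238, 219 and 228 CPM in the Δ*veA*-labelled libraries, and 10.7, 12.9 and 11.1 CPM in Δ*laeA*, a 12.8-fold rise over WT. It was the only 1 of these 10 genes, apart from AN8609 and AN2538, to rise over 5-fold. AN0857, AN0798, AN0565 and AN6643 had WT means of 58.3, 42.1, 54.8 and 52.6 CPM and means of 182, 171, 159 and 149.6 CPM in the Δ*veA*-labelled libraries, with 62.4, 47.1, 60.9 and 53.2 CPM in Δ*laeA*. For these 4 genes the rise was 2.85- to 4.07-fold.

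CPM also grows with the length of a gene, so levels of different genes are better compared after division by the annotated length. On this scale, CPM per kb, AN8609 remained the highest of the 62 genes with a known length in the Δ*veA*-labelled libraries at 445, followed by *argB* at 274, AN10318 at 177 and AN0798 at 159. The lowest were AN6791 at 1.22 and AN0009 at 2.22, both among the 5 genes over 4000 bp. The median was 17.4 CPM per kb in the Δ*veA*-labelled libraries, 2.71 in WT and 2.48 in Δ*laeA*. The genes ran from 223 to 7884 bp with a median of 1577 bp, beside 1563 bp for all genes counted, and 8 of them (12.9%) were under 1000 bp, beside 20.5% of all genes.

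In Δ*laeA* the 65 genes were close to WT by the rule, yet not all alike. No gene of the set was called higher than WT by edgeR with the 2-fold minimum, where 9.9% of all genes were, and DESeq2 also gave 0. Without the fold minimum 23 genes were higher at an adjusted p under 0.05 (36.6% of all genes) and 25 at an unadjusted p under 0.05. Their log2 fold changes ran up to 0.57, in AN5453. Called lower with the 2-fold minimum were AN8136, AN12267 and AN5859, beside 14.5% of all genes. AN8136 had 8, 9 and 2 counts in WT and 0, 1 and 1 in Δ*laeA*. AN5859 had 10, 12 and 9 counts in WT and 2, 3 and 2 in Δ*laeA*. All 3 genes had 3 or fewer counts in every Δ*laeA* library, so none was tested when at least 10 counts were asked of every library. With only the 2 groups fitted 0 of them were called, and 1 was called without WT replicate 1. Without the fold minimum 9 genes were lower (36.8% of all genes). The libraries of WT and Δ*laeA* overlapped in 51 of the 65 genes, against 20.7% of all genes tested. The rule's band bears on this count but does not set it. The band is on the centred ratio and held 54.9% of the 8905 genes with a mean of at least 1 CPM, whereas overlap was scored on CPM without centring. Nothing is read from the count.

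The best known group in the set is a run of 3 neighbouring genes on chromosome I that holds *sidD* and *sidH*, both genes of siderophore synthesis, and AN6237, which has no symbol. Siderophores are small molecules that fungi release or store to bind iron. *sidD* encodes the non-ribosomal peptide synthetase that assembles fusarinine-type siderophores, and *sidH* a hydratase that makes a building block of them, roles worked out in *Aspergillus fumigatus*. *sidD* was at 14.5, 12.5 and 15.1 CPM in WT, 60.4, 53.5 and 55.7 CPM in the Δ*veA*-labelled libraries, and 10.2, 9.20 and 9.34 CPM in Δ*laeA* (4.03-fold over WT, ratio 2.20). *sidH* was at 2.84, 3.92 and 3.13 CPM, 14.9, 15.9 and 15.4 CPM, and 2.1, 3.75 and 2.21 CPM in the same order (4.69-fold, ratio 2.30). AN6237, next to *sidD*, was at 6.87, 6.43 and 6.45 CPM, 30.0, 26.7 and 31.6 CPM, and 5.27, 8.11 and 6.68 CPM (4.47-fold, ratio 2.30). The 3 genes thus rose by nearly the same factor from different CPM, and the Δ*laeA* libraries of AN6237 and *sidH* overlapped those of WT.

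The genes around this run differed in how far they followed. *sidJ*, in *A. fumigatus* a siderophore esterase, lies 2 genes from AN6237 and went from 8.38 ± 1.26 CPM in WT (SD, n = 3) to 29.8 ± 1.91 CPM in the Δ*veA*-labelled libraries and 10.4 ± 1.33 CPM in Δ*laeA*. Its ratios were 2.00 and 0.60, so it missed the set by the Δ*laeA* limit alone. *mirD*, a siderophore transporter in *A. fumigatus*, lies between *sidJ* and AN6237 and was at 0.980 ± 0.101, 1.37 ± 0.228 and 0.406 ± 0.0574 CPM, a ratio of 0.57. AN6234, on the other side of *sidH*, went from 7.36 ± 0.999 to 18.8 ± 1.94 CPM in the Δ*veA*-labelled libraries and to 2.79 ± 0.388 CPM in Δ*laeA*, with ratios of 1.53 and -0.95. In Δ*laeA* the ratios of these 6 neighbouring genes thus spread from -0.95 to 0.60.

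The other siderophore and iron genes were spread over both directions. For this and the next lists, the shares over all genes tested were 13.6% called higher and 19.9% lower in the Δ*veA*-labelled libraries, and 9.9% higher and 14.5% lower in Δ*laeA*. Of 18 symbols listed, which did not include *sidJ* and *mirD*, 10 were found and tested. In the Δ*veA*-labelled libraries 3 were called higher and 1 lower (*ccpA*, log2 fold change -1.47, from 0.996 CPM in WT). Of these 3, *sidD* and *sidH* are in the set, so the rule asked for their calls. Only *sidI* (1.25) was called higher outside the set. The call of *ccpA* was lost without replicate 2 of the Δ*veA*-labelled libraries, and 2 genes were called lower with library totals in place of the TMM factors of edgeR. The list's median log2 fold change was 0.01, beside 0.00 for all genes tested. *sidC*, the synthetase of the intracellular siderophore, changed by -0.70 (from 42.7 to 21.6 CPM), *mirC*, a siderophore transporter, by -0.91, the iron repressor *sreA* by -0.48 and *hapX*, its counterpart in iron starvation, by -0.21 on the log2 scale. None of these passed 2-fold. In Δ*laeA*, *mirB*, another transporter, was the 1 gene called higher (1.10), but 0 were higher and 3 lower with library totals. The list was drawn up with earlier results of these data known, so it is no independent support for the run.

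Of the amino acid biosynthesis genes found by symbol, only *argB* was in the set. The list found 10 of 51 symbols, and 5 were called higher in the Δ*veA*-labelled libraries, namely *argB* (2.5), *lysB* (1.75), *argEF* (1.14), *cpcB* (1.11) and *lysF* (1.02, all log2 fold change). The call of *argB* was asked for by the rule. *cpcA*, the activator of the response to amino acid starvation, was at -0.92. The list's median was 0.98 in the Δ*veA*-labelled libraries and 0.41 in Δ*laeA*, where *metG* was the 1 gene called higher. With library totals in place of TMM factors, which moved the median of all genes by -0.26 in the Δ*veA*-labelled libraries, only 2 were called higher there and 1, *cpcA*, was called lower. Ribosomal protein genes found by symbol were not in the set either. Of these 8, 6 were called higher in the Δ*veA*-labelled libraries (median 1.23), which fell to 1 with library totals. In Δ*laeA* edgeR called 0 with the 2-fold minimum and 8 had an unadjusted p under 0.05.

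The lists for nutrient use held no gene of the set. Of 13 nitrogen genes tested, 2 were called higher and 2 lower in the Δ*veA*-labelled libraries (*crnA* at 2.03 and *prnB* at 3.80, *hxA* at -1.38 and *prnC* at -2.15), and in Δ*laeA* 4 were called higher and 1 lower. The 2 counts of the Δ*veA*-labelled libraries are near the shares over all genes. The list named for sulfur and phosphate use also held *pal* genes and *pacC*. Of its 3 genes tested, 2 were called higher in the Δ*veA*-labelled libraries, *sC* (1.04) and *phoB* (1.31), and 1 in Δ*laeA*. The third gene, *pacC*, was at -0.58 in the Δ*veA*-labelled libraries and was not called. The count of 2 was 1 without replicate 1 of the Δ*veA*-labelled libraries and with library totals. Of 5 carbon genes, 0 were called in either direction by edgeR or DESeq2 in either mutant, while 4 in the Δ*veA*-labelled libraries and 3 in Δ*laeA* were lower at an unadjusted p under 0.05, and library totals gave 2 called lower in the Δ*veA*-labelled libraries. Of the 65 genes, 61 have no symbol in the gene table, so lists made of symbols reach only 4 of them.

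By position, 62 of the 65 genes could be placed in the order of the RefSeq gene table, all of them protein coding, on all 8 chromosomes. The counts were 11 on VII, 9 each on I and III, 8 on VI, 7 each on V and VIII, 6 on IV and 5 on II, or 0.368 to 0.777% of the genes counted on a chromosome. None of the 62 overlapped another annotated gene. Of the 62, 11 (17.7%) lay directly beside another gene of the set, in 1 run of 3 and 4 pairs, and 22 (35.5%) had another gene of the set within 5 genes. Among raised genes with a Δ*laeA* ratio above 0.5, 21.8% of the 307 placed lay beside another of their group. Among those below -0.5 it was 14.3% of 28. The groups differ in size, and these shares were not tested.

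Genes of a pair did not all rise by the same factor. AN8609 and AN8608 lie side by side on chromosome III, but AN8608 went only from 2.09, 1.90 and 2.04 CPM in WT to 5.44, 6.32 and 5.67 CPM in the Δ*veA*-labelled libraries, a ratio of 1.56 beside 7.35. AN5068 and AN5067, also on III, went from 14.9, 14.7 and 14.3 CPM to 84.2, 78.1 and 83.5 CPM and from 38.7, 42.3 and 41.4 CPM to 151, 146 and 153 CPM. AN2319 lies beside AN2320 on VII, and AN2320 went from 2.31, 2.35 and 1.99 CPM to 8.62, 6.56 and 7.45 CPM, a ratio of 1.79 beside 4.59. AN10346 and AN10372 on VI reached like levels, at 10.8, 8.09 and 9.92 CPM and at 10.4, 9.09 and 9.87 CPM in the Δ*veA*-labelled libraries. AN10346 had 5 or fewer counts in every other library, and AN10372 had 1, 15 and 9 counts in WT. Their ratios were 4.15 and 3.89, and their means were 57.5-fold and 31.2-fold those of WT.

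Stretches of raised genes ran past the edge of the set. On chromosome II, AN8134 and AN8136 were in the set with ratios of 4.73 and 4.24, and their neighbours AN8135 and AN8137 had ratios of 4.82 and 4.87 but were left out by Δ*laeA* ratios of 0.70 and 0.65. AN8135 was at 0.224, 0.587 and 0.596 CPM in WT, 27.0, 19.3 and 22.3 CPM in the Δ*veA*-labelled libraries and 0.340, 0.959 and 1.03 CPM in Δ*laeA*. The 4 genes in a row were therefore all near silent in WT and Δ*laeA*, and the limit that divides them rests on levels of at most 1.03 CPM.

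On chromosome VI, AN3229 (10.6 ± 1.05 CPM in the Δ*veA*-labelled libraries, from 1.62 ± 0.287 CPM in WT, SD, n = 3) and AN3225 (9.85 ± 0.792 CPM, from 1.86 ± 0.221 CPM) bounded 3 genes outside the set that were raised as well. AN3228 and AN3227 had ratios of 2.76 and 2.84 and missed the set at 4.23 and 3.52 CPM. AN3226 had the highest CPM of the 5 genes, at 206 ± 10.6 CPM in WT. It rose to 1566 ± 106 CPM in the Δ*veA*-labelled libraries (SD, n = 3) and fell to 72.2 ± 5.63 CPM in Δ*laeA*, a ratio of -1.20. Beyond both ends the ratio in the Δ*veA*-labelled libraries dropped to -0.27 in AN3230 and 0.15 in AN3224. These genes were named after their values had been seen.

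The neighbours of AN8609 and AN5068 moved otherwise. AN8610, beside AN8609, went from 4.56 ± 0.415 to 16.4 ± 1.79 CPM in the Δ*veA*-labelled libraries and to 1.54 ± 0.480 CPM in Δ*laeA*, whereas AN8611, 1 gene further, fell from 66.7 ± 3.48 CPM in WT to 0.225 ± 0.0785 and 0.603 ± 0.230 CPM. AN5069, beside AN5068, rose from 0.975 ± 0.0714 CPM to 49.8 ± 2.80 CPM in the Δ*veA*-labelled libraries and to 4.86 ± 0.620 CPM in Δ*laeA*, with ratios of 5.32 and 2.17. A gene that was raised with hardly any change in Δ*laeA* could thus lie beside one that changed in both strains.

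**Figure D4:**
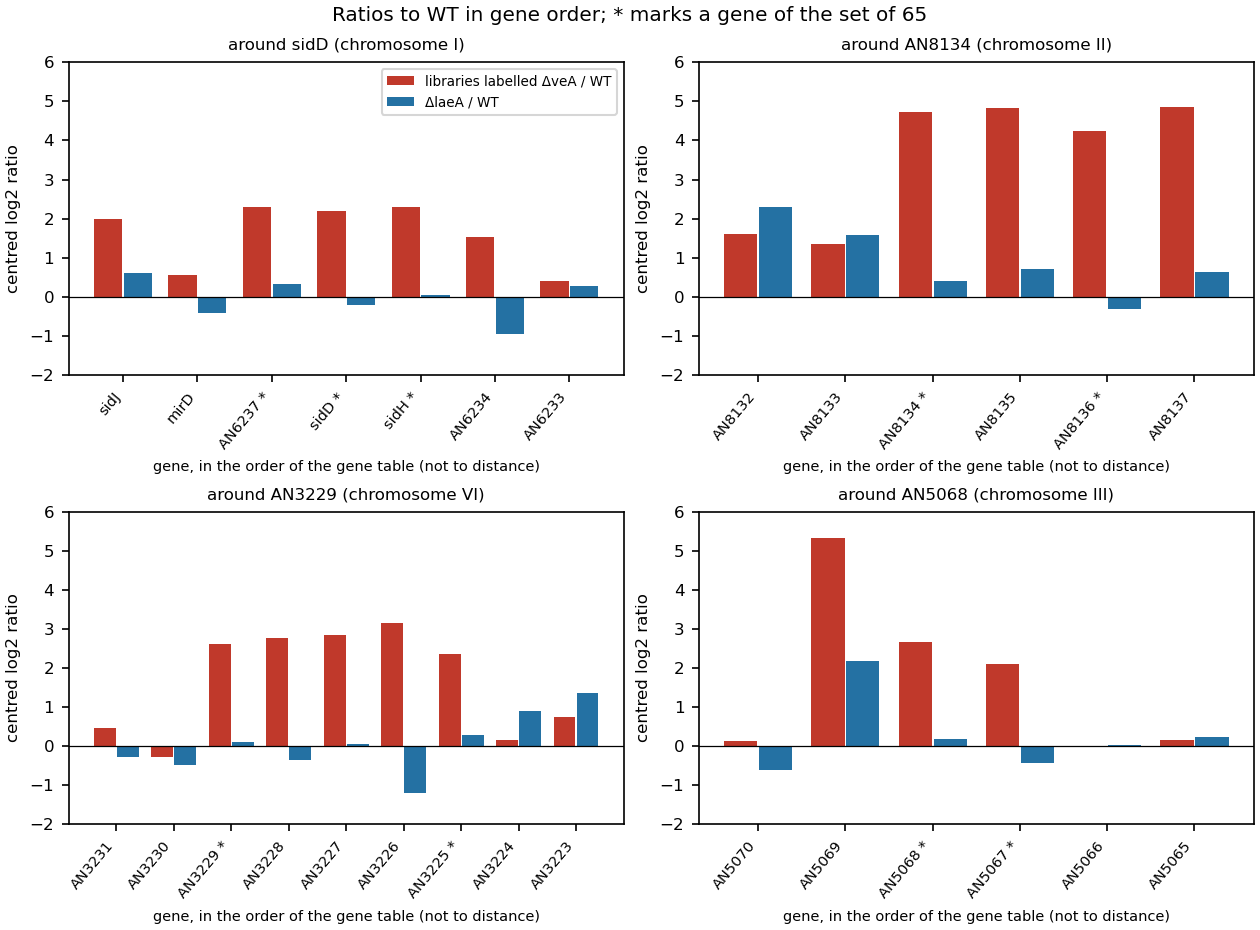
Centred log2 ratios to WT of the Δ*veA*-labelled libraries (red) and of Δ*laeA* (blue) for genes in 4 stretches, in the order of the gene table and not to distance, with genes of the set marked by an asterisk. Red bars of similar height continue into unmarked genes around AN8134 (4.24 to 4.87), where the unmarked genes have blue bars above 0.5, and around AN3229 (2.36 to 3.15), where AN3226 has a blue bar of -1.20 and AN3228 and AN3227 were under 5 CPM.

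The genes next to members were counted over the whole set. Of 92 genes directly beside a member and not in the set, 26 (28.3%) were called higher in the Δ*veA*-labelled libraries than in WT, beside 13.6% of all genes tested. The share was 24.5% at 2 genes away, 25.5% at 3, 18.2% at 4, 10.2% at 5 and 12.9% at 10 genes away. Genes called lower made up 15.2%, 11.8%, 23.5%, 25.3%, 24.5% and 20.4% at the same distances, beside 19.9% of all genes. Nearby genes share positions and some are counted from more than 1 member, so these shares are a description and were not tested.

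Of the 92 genes directly beside a member, 19 had a ratio of at least 1.5 in the Δ*veA*-labelled libraries, beside 5.04% of all genes tested. In Δ*laeA*, 10 of these 19 were above 0.5, 6 below -0.5 and 3 in between. The rule limits only the last number. A raised gene inside the band is itself in the set unless it is under 5 CPM, as these 3 were. The rule does not set the 10 and the 6, which stand beside 327 and 29 among all raised genes outside the band. For comparison, the 327 raised genes with a Δ*laeA* ratio above 0.5 had 20.8% of their 447 neighbours called higher, and the 29 with a ratio below -0.5 had 46.7% of 45. The share for the 65 genes lay between these values. Their median WT level was 3.29 CPM, beside 12.7 and 5.61 CPM for those groups, and 15.4% of them were under 1 CPM in WT, beside 7.03% and 3.45%. None of these differences was tested, since the genes were sorted by the same counts.

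**Figure D5:**
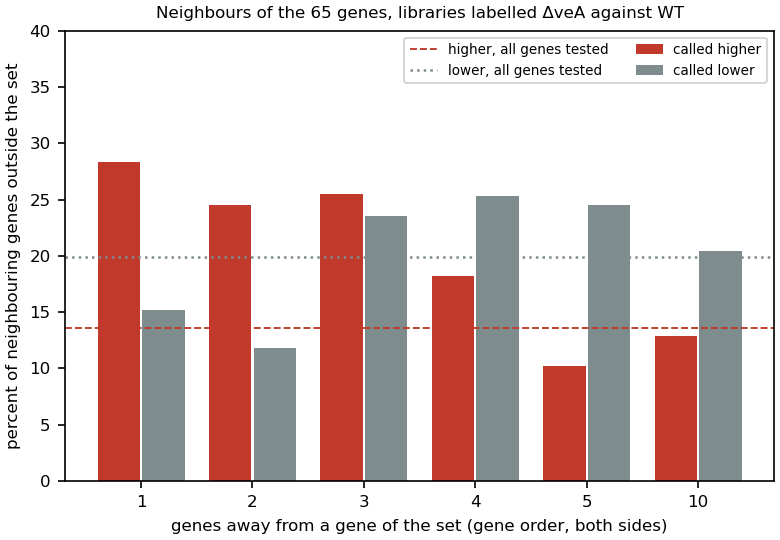
Share of genes outside the set that were called higher (red) or lower (grey) in the Δ*veA*-labelled libraries than in WT, by their distance in genes from a member of the set, with the share over all genes tested as lines at 13.6% and 19.9%. The red bars stand above their line from 1 to 4 genes away and below it at 5 and 10.

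The promoters and proteins of the 65 genes were not analysed here.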

How the data were processed

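Clean reads were mapped by the authors with HISAT2 2.1 and counted per gene with featureCounts 1.5.0, with default settings unless stated. How strand was set in that step is not given in the sources used here. The authors deposited the resulting read counts without normalization, in 10988 rows. The 9 per-library files hold the same values as the joint table. Totals ran from 13396869 to 35755046 counts per library, and no pair of libraries of a strain agreed within sampling noise.

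The members, the lists and the tests were chosen with earlier results of these data known. The genes named are the 10 members with the highest mean CPM and the 10 with the largest ratio in the Δ*veA*-labelled libraries, every member with a symbol, runs of neighbouring members and the genes beside them, the 3 genes nearest each threshold on either side, the strain markers, and list genes called. Other genes are named as examples chosen after their values were seen: these are AN0009, AN10318, AN11476, AN5453, AN5859 and AN6791 of the set, the genes around AN8134 and AN3229, *sidJ* and AN8611, and the list genes *sidC*, *mirC*, *sreA*, *hapX*, *cpcA* and *pacC*.

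Ratios used CPM from library totals and a pseudocount of 0.5 CPM. Calls used edgeR 4.0.16 in R 4.3.3 with TMM factors and filterByExpr (9481 genes tested, 1507 rows put aside), the quasi-likelihood test in 1 model of all 9 libraries, and Benjamini-Hochberg adjustment. The fit of the Δ*veA*-labelled libraries against WT was tested on simulated data. Calls had to change over 2-fold at an adjusted p below 0.05, as in the study. Alternatives included DESeq2 1.42.0 and limits on counts. Symbols, lengths and gene order are those of RefSeq for assembly ASM1142v1 (10032 rows matched). The study cites another record, so no coordinates are given. For WT and the Δ*veA*-labelled libraries, the deviations of libraries with the same replicate number correlated at 0.38, 0.19 and 0.10, so a fit with replicate number as a block was made. It changed no call of a member. Limits of 3 counts cover counting error only. Figures and tables used Python 3.11.15, pandas 2.3.3 and matplotlib 3.10.9.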

Additional observations from a re-analysis of the deposited data

How the results depend on the processing

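The rule gave 49 to 81 genes over the other pseudocounts, scalings, minima and group medians, sharing 44 to 65 with the 65 genes, and 63 to 68 with each library left out, where 45 genes remained throughout. AN8609 left the set without Δ*laeA* replicate 2 and with group medians. With 0.1 CPM as the pseudocount 10 genes were lost, among them AN8134, AN8136 and AN12267. Of 910 recomputed ratios in the Δ*veA*-labelled libraries none was reversed, and the lowest was 1.29. The genes were chosen for a ratio of at least 1.5 in these libraries, so this is no support for the choice.

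All 65 genes were called higher in the Δ*veA*-labelled libraries than in WT and than in Δ*laeA* under every alternative that was run but one: with at least 10 counts asked of every library, 54 genes of the set were tested and all 54 were called. As the rule asked for these differences, the calls are no evidence for the set. The number called lower in Δ*laeA*, 3, was 0 with only the 2 groups, and 1 to 4 with each library left out, the lowest without WT replicate 1. With at least 10 counts in every library it was 0 by the filter, since the 3 genes were then not tested. With library totals alone, 825 genes in place of 1293 were called higher in the Δ*veA*-labelled libraries and 575 in place of 939 in Δ*laeA*, and genes called higher made up 26.0% and 22.9% of all calls in place of 40.6%. In the Δ*veA*-labelled libraries the amino acid list then had 2 higher and 1 lower, the siderophore list 2 lower, the carbon list 2 lower, the sulfur and phosphate list 1 higher and the ribosomal list 1 higher. In Δ*laeA* the siderophore list had 0 higher and 3 lower. Without a fold minimum 7601 genes were called in the Δ*veA*-labelled libraries (3806 higher), 6960 in Δ*laeA* (3470 higher, with 23 members higher and 9 lower), and 6645 between the mutants (3463 higher).

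With a library left out, which was chosen after seeing the data for the lists, sulfur and phosphate genes called higher in the Δ*veA*-labelled libraries ranged from 1 to 2 (lowest without replicate 1), siderophore genes called lower from 0 to 1 (lowest without replicate 2), and conidiation and sexual markers called lower in Δ*laeA* from 3 to 5 (lowest without replicate 1).

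With replicate number as a block 1294, 935 and 636 genes were called higher in the 3 comparisons, beside 1293, 939 and 639, and no count for a member or a list changed. The same-numbered libraries of Δ*laeA* correlated with those of WT at -0.06, 0.11 and -0.10, which shows no pairing between these groups. Those of the Δ*veA*-labelled libraries and WT correlated at 0.38, 0.19 and 0.10. Whether the numbers pair samples there is not known. Counts of 3 or fewer, in at least 1 WT library or in all Δ*laeA* libraries, limit what can be said of 8 members.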
